A study of Rattus norvegicus with 12 samples.

Results

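Complement is a cascade of plasma and tissue proteins that tags cells and debris for removal. Its classical branch starts when C1q, a hexamer built of A, B and C chains, binds a target such as an antibody. The proteases C1r and C1s are attached to C1q, and C1s then cleaves C4 and C2 so that C3 is split. The fragments C3a and C5a act on the receptors encoded by C3ar1 and C5ar1, and the C1 inhibitor encoded by Serping1 blocks C1r and C1s. In brain, C1q comes mainly from microglia, and complement is known for tagging synapses for removal by them. The 9 genes described here were C1qa, C1qb, C1qc, C1s, C2, C3, C3ar1, C5ar1 and Serping1. They were taken by name, with earlier results of these data known. Each probe set annotated to exactly 1 of these symbols was used. This gave 8 of the 14217 named genes, with 1 probe set each of 31042 tested. C2 had none, because its 4 probe sets also carry the symbol of the neighbouring gene, so C2 has no value here.

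RNA was measured on 12 Affymetrix rat arrays from organotypic hippocampal slices, which are living brain slices kept on a membrane. All groups came from Wistar rats aged 7 days at slicing and were collected after 26 days in vitro. The untreated group (NT) received no antibody, and the 3 other groups received 3 µg/ml for 5 days from day 21. The IgG group received a control monoclonal antibody to wheat auxin. The 11C7 and 7B12 groups received mouse monoclonal antibodies to residues 623-640 and 763-820 of rat Nogo-A, a membrane protein of oligodendrocytes and neurons that limits neurite growth. Each group had 3 arrays numbered 1 to 3, each from the pooled RNA of 24 cultures, and the design text describes the replicates as separate cultures from different animals. The values are log2 of the deposited ratio of a probe set to its own reference, less the median of the array. They therefore carry no absolute level and cannot be compared between genes, and whether a cell type's markers were absent cannot be read from them. A change in such bulk RNA cannot tell fewer or more cells of a type from less or more RNA per cell. The number of arrays limits the precision.

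The complement genes fell mainly into a set that followed the replicate number and a set that stood higher in 7B12. C1qa, C1qb and C1qc had nearly the same value in all 4 groups and were high in the 4 arrays numbered 3. C1s, C3, C3ar1 and Serping1 were higher in every 7B12 array than in all 6 arrays of NT and IgG. In 11C7 these genes were highest in array 1. Against the controls of the same number, C1s was also higher in 11C7 2, and Serping1 in 11C7 2 and 3. C5ar1 followed the replicate number and stood higher in 7B12, each to a smaller extent. None of the antibody differences passed in limma after Benjamini-Hochberg adjustment over all probe sets, a test that called 0 of 31042 probe sets (0.0%) in each comparison between groups. Differences among replicate numbers passed for 5 of the 8 genes, where 17.9% of all probe sets passed.

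The table of RefSeq promoters held 4 of the 9 genes. They are printed to set the start regions of C1qa and C1qb, whose values were alike across groups, beside those of C3 and C3ar1, whose values were high in 7B12. Each runs 5′ to 3′ along the gene from 250 bases before the start to 50 after it (assembly GRCr8), with matches to searched motifs in capitals.
C1qa (chr5:154419884-154420183, minus strand): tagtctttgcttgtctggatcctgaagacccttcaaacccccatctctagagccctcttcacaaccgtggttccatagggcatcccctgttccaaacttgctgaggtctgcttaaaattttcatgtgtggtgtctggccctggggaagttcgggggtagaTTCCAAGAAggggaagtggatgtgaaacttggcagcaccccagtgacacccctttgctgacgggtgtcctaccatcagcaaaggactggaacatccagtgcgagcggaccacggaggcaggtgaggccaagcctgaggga
C1qb (chr5:154407778-154408077, minus strand): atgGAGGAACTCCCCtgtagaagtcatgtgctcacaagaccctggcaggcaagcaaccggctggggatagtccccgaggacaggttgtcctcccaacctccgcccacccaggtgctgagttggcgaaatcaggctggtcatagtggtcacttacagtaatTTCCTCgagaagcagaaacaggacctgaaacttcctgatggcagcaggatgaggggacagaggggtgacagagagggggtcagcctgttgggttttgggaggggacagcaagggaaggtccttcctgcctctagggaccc
C3 (chr9:2201290-2201589, minus strand): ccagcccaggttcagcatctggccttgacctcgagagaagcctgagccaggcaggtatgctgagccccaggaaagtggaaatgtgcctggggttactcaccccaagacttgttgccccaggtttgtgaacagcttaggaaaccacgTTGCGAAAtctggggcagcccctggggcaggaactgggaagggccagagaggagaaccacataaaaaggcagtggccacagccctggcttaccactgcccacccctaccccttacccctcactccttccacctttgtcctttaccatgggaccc
C3ar1 (chr4:157756481-157756780, minus strand): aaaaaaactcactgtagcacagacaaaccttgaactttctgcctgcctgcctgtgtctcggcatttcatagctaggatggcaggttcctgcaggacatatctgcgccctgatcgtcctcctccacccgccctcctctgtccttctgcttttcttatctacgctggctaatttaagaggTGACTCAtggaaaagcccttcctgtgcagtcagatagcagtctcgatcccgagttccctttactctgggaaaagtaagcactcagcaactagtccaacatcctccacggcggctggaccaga

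On either strand of these windows, C1qa had 1 match to the gamma-activated site TTCNNNGAA, at position -90 from the start, a motif that 8.87% of the 33469 promoters in the table held. C1qb had 2 matches to the ETS core GAGGAA (27.6% of promoters) and 1 to the NF-kB site (7.51%), which overlaps the first of them. C3 had 1 match to TTGCNNAA, a form of the C/EBP site (10.6%), and C3ar1 had 1 match to the AP-1 site TGANTCA (7.33%). The interferon-stimulated response element (3.92%) and the TATA box TATAAA (14.2%) had no match in the 4 windows. In the RefSeq gene order, C1qb, C1qc and C1qa lie side by side on chromosome 5, and C1s lies beside C1r on chromosome 4.

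C1qa, C1qb and C1qc encode the 3 chains of C1q, the subunit that recognises targets. The log2 values of C1qc were 0.07, -0.43 and 0.61 in NT 1, 2 and 3, 0.04, -0.42 and 0.68 in IgG, 0.10, -0.40 and 0.64 in 11C7, and 0.07, -0.28 and 0.54 in 7B12. Arrays of the same number therefore lay close together whatever the treatment, and the groups overlapped fully. C1qa was 0.11, -0.32 and 0.62 in NT, -0.01, -0.15 and 0.66 in IgG, 0.12, -0.17 and 0.50 in 11C7, and -0.02, -0.33 and 0.46 in 7B12. C1qb was -0.03, -0.04 and 1.10 in NT, -0.14, 0.07 and 1.09 in IgG, 0.03, -0.24 and 0.96 in 11C7, and -0.13, 0.20 and 0.98 in 7B12. For all 3 chains the 4 arrays numbered 3 lay above the other 8 arrays, which held for 2.28% of all probe sets. Arrays numbered 2 were lowest for C1qa and C1qc, but for C1qb those numbered 1 and 2 overlapped.

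**Figure D1:**
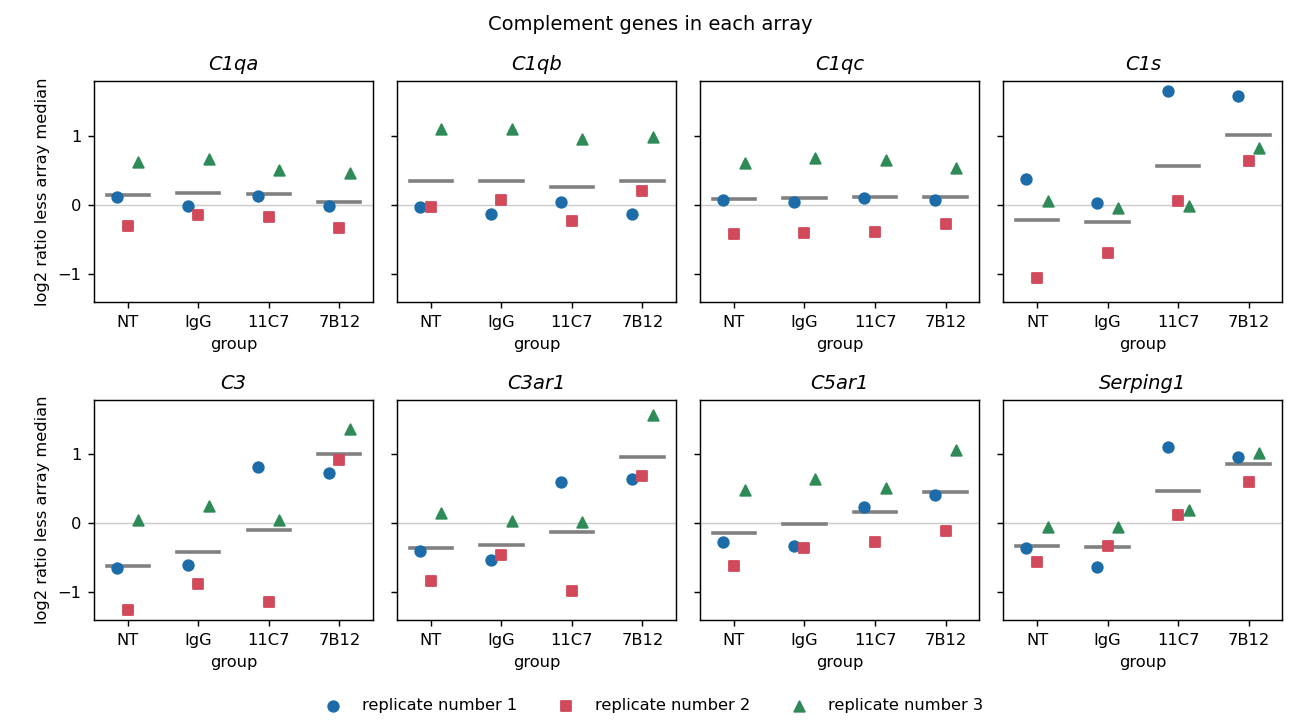
Log2 values (deposited ratio less the array median) of the 8 complement genes in each of the 12 arrays, by group (x axis); marker shape and colour give the replicate number and grey lines the mean of 3 arrays. The C1q chains are highest in number 3 in every group, whereas C1s, C3, C3ar1 and Serping1 lie higher in all 7B12 arrays and in 11C7 1.

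Against the mean of NT and IgG, 7B12 differed by 0.02 ± 0.34 (SE) for C1qc, 0.0071 ± 0.42 for C1qb and -0.12 ± 0.29 for C1qa, and the adjusted p in limma was 1 for each. The 95% intervals ran from -0.75 to 0.79 for C1qc, from -0.93 to 0.95 for C1qb and from -0.76 to 0.53 for C1qa. Changes within these intervals were not excluded by this fit, which leaves out the replicate number. With the number as a block the intervals were narrower, as given in the closing section. Within a number the spread was smaller. Compared with the controls of its own number, 7B12 stood 0.02 ± 0.12 (SD, n = 3) above for C1qc and 0.0071 ± 0.15 for C1qb. For C1qa it stood at -0.12 ± 0.06, lower in 3 of 3 numbers, as 15.8% of all probe sets were. For 11C7 the same differences were 0.03 ± 0.02, -0.09 ± 0.19 and -0.0029 ± 0.12 for C1qc, C1qb and C1qa.

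Replicate number differed in limma's F test with group in the model, at an adjusted p of 0.00388 for C1qc, 0.00431 for C1qb, 0.00739 for C1qa and 0.00902 for C5ar1, and these 4 calls held when any single array was left out. C1s also passed, at an adjusted p of 0.0465, but this call ended without any 1 of 11 arrays (adjusted p up to 0.13) and held only without 11C7 3 (0.0324). C3 (0.138), C3ar1 (0.146) and Serping1 (0.517) did not pass, although C3 (0.0277) and C3ar1 (0.0244) did without 11C7 1. The number accounted for 98.7% of the sum of squares of C1qc over the 12 arrays, 95.7% of that of C1qb, 94.7% of that of C1qa and 6.24% of that of Serping1, against a median of 35.2% over all probe sets. Group accounted for 0.101% in C1qc and 76.1% in Serping1, against a median of 18.3%. Microglial and macrophage markers ran with the C1q chains: all 11 measured of 13 listed, among them Tyrobp, P2ry12, Cx3cr1 and Trem2, were on average higher in the arrays numbered 3, by 0.33 to 1.03. The mean of these markers was 0.41 to 0.67 in the 4 arrays numbered 3 and -0.54 to 0.09 in the others. The rise was not particular to them. The mean of the oligodendrocyte list (6 of 7 measured) was 0.30 to 0.74 in the arrays numbered 3 and -0.83 to 0.26 in the others. The part of either list in the C1q pattern was not tested.

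**Figure D2:**
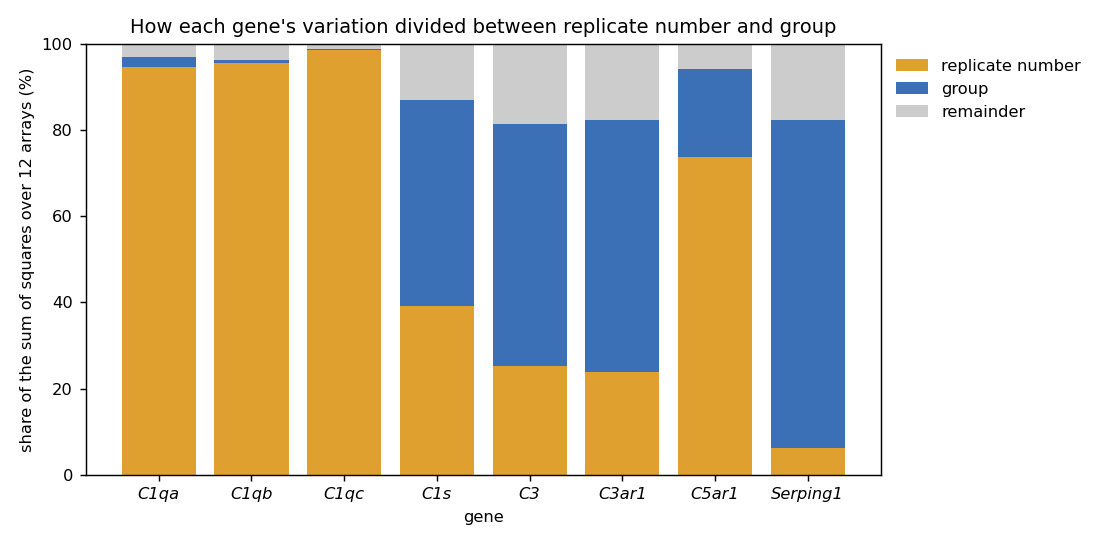
Share of the sum of squares over the 12 arrays (y axis, percent) taken by replicate number, by group and by the remainder, for each complement gene. Number takes 94.7% or more in the C1q chains and 73.8% in C5ar1, and group takes 76.1% in Serping1.

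C1s encodes the attached protease that cleaves C4 and C2. Its values were 0.37, -1.07 and 0.05 in NT 1, 2 and 3, 0.02, -0.71 and -0.05 in IgG, 1.65, 0.05 and -0.02 in 11C7, and 1.57, 0.63 and 0.82 in 7B12. The 7B12 arrays lay above all 6 control arrays, and of the 11C7 arrays only number 1 did. Against the controls of the same number, however, 11C7 1, 2 and 3 stood at 1.45, 0.93 and -0.01. The 7B12 difference from the controls was 1.24 ± 0.45 (SE, 2.36-fold, adjusted p = 0.845 in limma, unadjusted p = 0.0216). For 11C7 it was 0.79 ± 0.45 (adjusted p = 1), and 0.25 without 11C7 1.

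C3 encodes the central component on which all branches of the cascade meet. It stood at -0.65, -1.26 and 0.04 in NT, -0.61, -0.89 and 0.24 in IgG, 0.81, -1.14 and 0.04 in 11C7, and 0.73, 0.92 and 1.37 in 7B12. In 11C7 2 it was as low as in the controls of that number, while 7B12 2 lay 2.00 above them, the widest such gap among the 8 genes. The 7B12 difference was 1.53 ± 0.45 (SE, 2.88-fold, adjusted p = 0.691 in limma, unadjusted p = 0.0073). The 11C7 difference was 0.42 ± 0.45 (adjusted p = 1) and turned to -0.03 without 11C7 1.

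C3ar1 encodes the receptor for C3a, found on microglia and macrophages. It was -0.40, -0.84 and 0.15 in NT, -0.53, -0.46 and 0.03 in IgG, 0.59, -0.99 and 0.02 in 11C7, and 0.65, 0.68 and 1.56 in 7B12. It was the only one of the 8 whose 7B12 arrays lay above all 11C7 arrays as well, as 3.89% of all probe sets did. Against the controls 7B12 differed by 1.31 ± 0.38 (SE, 2.48-fold, adjusted p = 0.668 in limma, unadjusted p = 0.00635). 11C7 differed by 0.22 ± 0.38 (adjusted p = 1), and by -0.14 without 11C7 1. Over the 12 arrays C3ar1 and C3 had a Pearson r of 0.973, a description of points that share numbers and groups.

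C5ar1 encodes a receptor for C5a, which draws in and activates myeloid cells. Its values were -0.28, -0.62 and 0.49 in NT, -0.33, -0.37 and 0.64 in IgG, 0.23, -0.27 and 0.51 in 11C7, and 0.41, -0.12 and 1.06 in 7B12. The groups overlapped, because arrays numbered 3 were high in every group, but each 7B12 array lay above the controls of its own number. The 7B12 difference was 0.53 ± 0.36 (SE, adjusted p = 1 in limma), or 0.53 ± 0.17 (SD, n = 3) within numbers, and the 11C7 difference was 0.23 ± 0.36. With 1 array left out, the 7B12 difference of C5ar1 ran from 0.22 (without 7B12 3) to 0.81 (without 7B12 2), and the 11C7 difference from 0.060 (without 11C7 3) to 0.45 (without 11C7 2). Of the control arrays, NT 2 (0.11 without it), IgG 1 (0.16), IgG 2 (0.15), NT 3 (0.39) and IgG 3 (0.40) each also moved the C5ar1 difference in 11C7 by over 1.5 times.

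Serping1 encodes the C1 inhibitor, a serpin that inactivates C1r and C1s. It was -0.35, -0.56 and -0.06 in NT, -0.63, -0.33 and -0.06 in IgG, 1.11, 0.12 and 0.18 in 11C7, and 0.95, 0.59 and 1.01 in 7B12. All 6 arrays of the Nogo-A antibodies lay above all 6 control arrays, as for 0.0966% of all probe sets, though 11C7 2 and 3 did so by little. Against the controls of the same number, 11C7 1, 2 and 3 stood 1.60, 0.56 and 0.25 higher. The difference from the controls was 1.19 ± 0.25 (SE, 2.28-fold) for 7B12 (adjusted p = 0.53 in limma, unadjusted p = 0.000973), 0.80 ± 0.25 for 11C7 (adjusted p = 1, unadjusted p = 0.0107) and 0.99 ± 0.21 for the mean of both (adjusted p = 0.675). Without 11C7 1 the 11C7 difference was 0.48.

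Of the 8 genes, 4 lay above all control arrays in 7B12, where 1.99% of all probe sets did, and 1 (Serping1) in 11C7, where 0.767% did. These counts stayed at 4 and 1 when any 1 array of the comparison was left out. The genes were chosen with earlier results of these data known, so the counts only describe them. Of the 49 probe sets of other complement genes described below, 2 (4.08%) lay above all control arrays in 7B12 and 2 (4.08%) in 11C7. At an unadjusted p under 0.05, 4 genes were higher in 7B12 (3.09% of all probe sets) and 1 in 11C7 (0.989%). By the same measure 0 were lower in 7B12 (2.12%) and 0 in 11C7 (2.23%). The median difference of the 8 genes was 0.86 in 7B12 and 0.23 in 11C7, beside 0.0026 and 0.0097 over all probe sets, and the control IgG differed from NT by -0.03 to 0.21. In 3 of 3 numbers, 5 genes stood above their own controls in 7B12 (17.4% of all probe sets) and 2 in 11C7 (12.3%), namely Serping1 and, by 0.0044 to 0.05, C1qc.

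**Figure D3:**
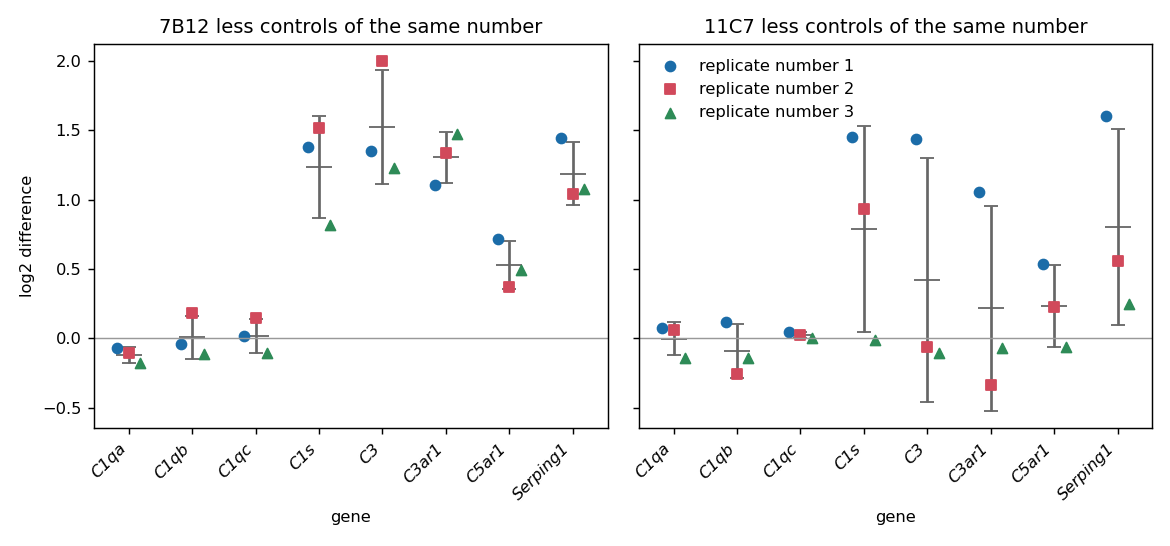
Log2 difference of each 7B12 array (left) and 11C7 array (right) from the mean of NT and IgG of the same replicate number; bars are the mean and SD of 3 numbers. With 7B12 the 3 numbers lie above 0 for C1s, C3, C3ar1, C5ar1 and Serping1, and with 11C7 number 1 stands above numbers 2 and 3 for these genes.

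Whether the 2 Nogo-A antibodies, which bind different stretches, gave different complement values was asked directly for the 5 genes outside the C1q chains. 7B12 stood above 11C7 by 1.10 ± 0.52 (SE) for C3, 1.09 ± 0.44 for C3ar1, 0.45 ± 0.52 for C1s, 0.38 ± 0.29 for Serping1 and 0.29 ± 0.42 for C5ar1, each with an adjusted p of 1 in limma. The 95% interval ran from -0.06 to 2.27 for C3, from 0.12 to 2.07 for C3ar1 before adjustment, and from -0.27 to 1.04 for Serping1. These differences moved by over 1.5 times when single arrays were left out. Without 11C7 2 they were 0.58 for C3, 0.66 for C3ar1, 0.19 for C1s, 0.21 for Serping1 and 0.083 for C5ar1. Without 11C7 1 they were 0.99 for C1s and 0.70 for Serping1, and without 11C7 3 they were 0.16 for C1s, 0.24 for Serping1 and 0.47 for C5ar1. C1s stood at 0.17 without 7B12 1, and C5ar1 at 0.58 without 7B12 2 and -0.011 without 7B12 3. Array 11C7 1 differed from 7B12 1 by -0.18 to 0.16 over all 8 genes, while C3 in 11C7 2 and 3 was 2.06 and 1.33 lower than in 7B12 2 and 3, and C3ar1 1.68 and 1.54 lower. Both antibody groups were set against the same control arrays.

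Markers of other cells stood beside these values. The fibroblast and meningeal list (6 of 6 measured) averaged 0.44, 1.63 and -0.04 in 7B12 1, 2 and 3. In 11C7 1, 2 and 3 it averaged 0.18, -0.78 and -0.41, and in the control arrays -0.91 to 0.51. All 6 of its genes lay above the controls in 7B12 and 1 of 6 in 11C7. The list of neutrophil, lymphocyte and red cell markers (7 of 10 measured) averaged -0.52 to -0.12 in 7B12 and -1.75 to -0.65 in the controls. In 11C7 1, 2 and 3 it averaged -0.30, -1.19 and -0.35. All 7 of its genes lay above the controls in 7B12 and also in 11C7. Against the controls of the same number, the list mean stood 0.24 to 1.46 higher in 7B12 and 0.21 to 1.29 higher in 11C7. Microglial markers averaged -0.22 to 0.48 in 7B12 and -0.54 to 0.67 in the controls, with 7 of 11 higher in 7B12. Neuron means ran from -1.12 to 0.88 in 7B12 and from -1.73 to 1.27 in the controls, and astrocyte means from -0.32 to 0.17 and from -0.05 to 0.29. Against the controls of their own number, astrocyte means in 7B12 were lower in 3 of 3 (-0.42 to -0.08, with 3 of 8 genes above the controls), and so were endothelial means (-0.85 to -0.42, with 1 of 4 genes above). Hepatocyte genes, 4 of 4 measured, averaged -1.48 to -0.31 in 7B12 and -1.41 to -0.06 in the controls, oligodendrocyte markers, 6 of 7, -0.73 to 0.30 and -0.83 to 0.74, and endothelial markers, 4 of 5, -1.53 to -0.15 and -1.31 to 0.56. The part of these lists in the complement values was not tested.

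A list of 49 further complement genes gave 49 probe sets of 35 genes, 20 of them with a 12-array median ratio under 1, against 0 of the 8 described. In limma 0 of 49 passed in any comparison between groups. In 7B12, 8 had an unadjusted p under 0.05. Of these, 6 were higher (12.2% of the 49, and 3.09% of all probe sets) and 2 lower (4.08%, and 2.12% of all). Among replicate numbers 10 probe sets of 9 genes (20.4%) passed, near the 17.9% of all probe sets. The median difference was 0.16 in 7B12, with 30 of 49 above 0 (61.2%, and 50.3% of all probe sets), and 0.06 in 11C7, with 26 above 0 (53.1%, and 51.5% of all). The smallest p in 7B12 was that of Itgax, the αX chain of complement receptor 4, at 2.39 ± 0.58 (SE, 5.25-fold, adjusted p = 0.563 in limma). Its values of 2.11, 1.70 and 2.70 in 7B12 and 2.31 in 11C7 1 stood apart from -0.99 to 0.18 in the controls and from -0.29 and -0.41 in 11C7 2 and 3, the pattern of C3 and C3ar1.

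C1r, the partner protease of C1s, stood 0.98 ± 0.31 (SE) above the controls in 7B12 (adjusted p = 0.774 in limma) and 0.33 ± 0.31 in 11C7. Clu, the gene of the fluid-phase inhibitor clusterin, stood at 0.78 ± 0.24 on 1 probe set and 0.21 ± 0.22 on the other in 7B12, so its probe sets disagreed. Mbl2, a lectin that starts the lectin branch, stood at 1.10 ± 0.32 in 7B12 on 1 probe set and at -0.0025 ± 1.25 on the other. In 11C7 the smallest p belonged to Cd55, a membrane inhibitor of C3 convertases, at -0.96 ± 0.33 (adjusted p = 1), and in 7B12 the same probe set stood at -0.85 ± 0.33, while its other probe set stood at 0.85 and 0.18. Cfi, the protease that inactivates C3b, stood at 1.34 ± 0.48 in 11C7 and 1.09 ± 0.48 in 7B12. Next in 11C7 came Cr2, complement receptor 2, at -1.88 ± 0.85 on 1 of 5 probe sets, the other 4 standing at 1.05, 0.35, -0.34 and -0.88. Clu stood at 0.53 ± 0.24 in 11C7 on 1 probe set and at -0.03 ± 0.22 on the other. None of these passed. The 12-array median ratio was under 1 for both Mbl2 probe sets (0.58 and 0.787) and the other Cd55 probe set (0.3215). It was also under 1 for all 5 Cr2 probe sets (0.0376 to 0.55). Such probe sets are the dim ones that 1 alternative left out.

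**Figure D4:**
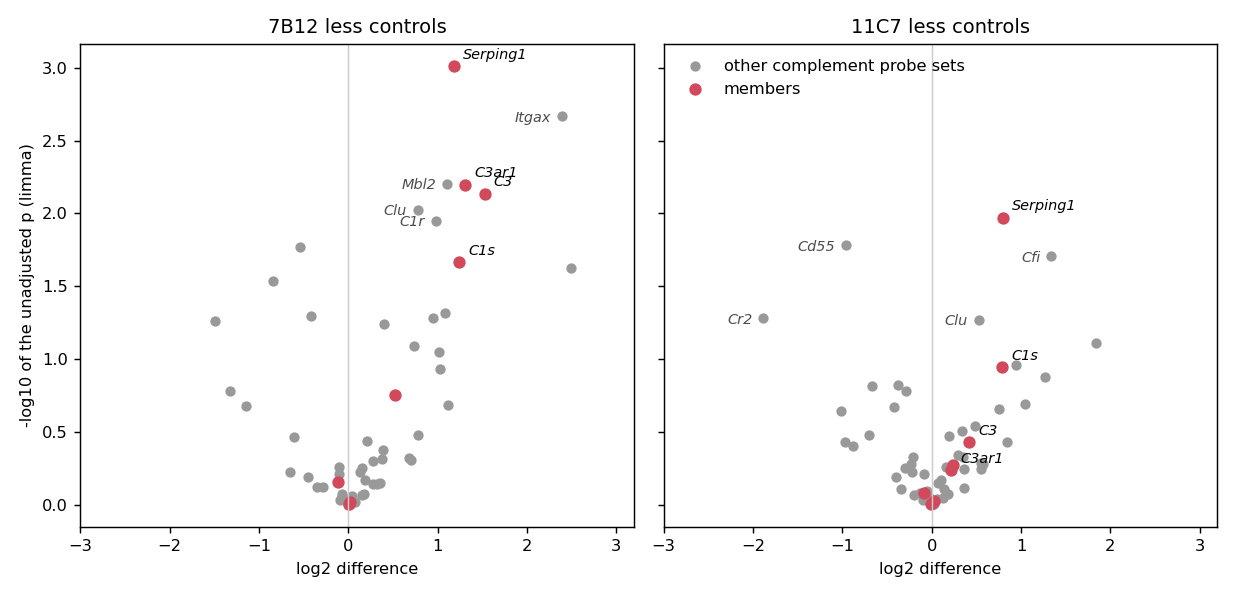
Log2 difference from the mean of NT and IgG (x axis) and -log10 of the unadjusted limma p (y axis) for the 8 member probe sets and 49 other complement probe sets, 7B12 left and 11C7 right. Serping1 has the smallest p of the 57 in both panels, and C3, C3ar1 and C1s lie farther right with 7B12 than with 11C7; none passes after adjustment.

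Among named probe sets outside the 9 genes, those most like Serping1 over the 12 arrays were Pilrb2l4 (Pearson r = 0.968), Steap4 (0.967), Rac2 (0.96), Clec4a1 (0.956) and Folr2 (0.954). Most like the mean of the 3 C1q chains were Rnaset2 (0.971), Klhl6 (0.97), Nudt21 (0.97), Pld4 (0.96) and RT1-DMb (0.959), the last encoding a chain that helps load MHC class II. These values are a ranking over 12 arrays that share numbers and groups, with no test.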

How the data were processed

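Per the labels' protocols, total RNA was turned into biotin-labelled cRNA for Affymetrix arrays. GCOS 1.4 and MAS5 are named in the submitters' processing notes. The deposited values are ratios: the authors normalized per array and per gene, which the design text describes as relative to the control median. The 12-array median was 1 (within 0.0015) for 76.4% of probe sets and under 1 for 7319. That of the 6 controls was 1 for 11.2%. Most probe sets were thus centred on the 12-array median, not on that of the controls. Which reference the 7319 had is not settled. Of 31099 probe sets, 57 control probe sets were left out. Gene symbols come from the platform annotation (20826 probe sets with 1 symbol, 436 with several, 9780 with none here). The log2 ratio less the array median was fitted in limma 3.58.1 (R 4.3.3) with 1 mean per group over 12 arrays, eBayes without trend, two-sided, with Benjamini-Hochberg adjusted p over the whole table called under 0.05. Depth has no counterpart on arrays. The fit was also run on simulated arrays, with known changes put into probe sets of below-median spread. That run was a check of the code and does not give the power for these genes.

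Members, lists and tests were chosen with earlier results of these data known. All member probe sets were named, with the 4 other complement probe sets of smallest p per comparison with controls and the 5 most like Serping1 and C1q. Groups and replicate numbers come from the sample titles. Alternatives covered centring, quantile normalization, a pseudocount of 0.1, trend, array weights and IgG alone as control. They also covered the replicate number as a block, leaving out each array, and leaving out dim probe sets (12-array median ratio under 1).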

Additional observations from a re-analysis of the deposited data

How the results depend on the processing

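None of the differences between groups given for the members passed after adjustment under any alternative. With the replicate number as a block, 0 probe sets passed in each comparison between groups, and in 7B12 C3 stood at an adjusted p of 0.306, C3ar1 at 0.297, C1s at 0.296, Serping1 at 0.291 and C5ar1 at 0.339. The block narrowed the 95% interval of the 7B12 difference to -0.20 to 0.24 for C1qc, -0.28 to 0.29 for C1qb and -0.35 to 0.11 for C1qa. Of 18 pairs of arrays with the same number in different groups, the correlation of deviations from the group means was 0.086 to 0.42, and it was -0.29 to 0.081 for 36 pairs of different number, so by these deviations, across groups, each array was most like those of its own number. All 18 pairs lay above all 36. Deviations from the mean of 3 arrays sum to 0, so positive correlations within numbers bring negative ones between numbers. The split is therefore partly arithmetic. By the values themselves, NT 3 was most like 11C7 2 (0.496) and 11C7 2 most like 11C7 1 (0.563). Every other array was most like 1 of its own number. The likeness by number is a hint from the data, and correlations cannot tell whether arrays of the same number were paired by design. With the block and the 11C7 arrays left out, 68 probe sets (0.219%) passed in 7B12 but no member (C3ar1 0.0599, C3 0.0722, Serping1 0.073). IgG against NT had 1 call when dim probe sets were left out. The methods' analysis of variance, at their threshold and 1.2-fold, took 928 probe sets, Serping1 (unadjusted p = 0.00723) alone among the members, and 0 after Benjamini-Hochberg. With any 1 array left out, calls were 0 to 10 in 7B12 (10 without 11C7 1), 0 to 1 in 11C7, in both antibodies, in IgG against NT and in 7B12 less 11C7, 0 to 2 among the 4 groups and 1747 to 6116 among replicate numbers. With 11C7, the members above their own controls in every number were 1 after quantile normalization and 2 to 5 with 1 array left out (5 without 11C7 3). The C1s call among numbers ended after quantile normalization (adjusted p = 0.0615). Small differences near 0 changed sign. With values as deposited these were C1qb (-0.029) and C1qc (-0.018) in 7B12, C1qa in 11C7 (0.024), and C1qb (0.017) and Serping1 (0.0049) in IgG less NT. After quantile normalization they were C1qb (-0.16) and C1qc (-0.078) in 7B12. With array weights they were C1qb (-0.11) and C1qc (-0.087) in 7B12 and C1qc in 11C7 (-0.13). With 1 array left out, differences that changed sign had these ranges: in 11C7 against the controls it ran from -0.18 to 0.16 for C1qa, -0.44 to 0.15 for C1qb, -0.24 to 0.28 for C1qc, -0.030 to 0.94 for C3, -0.14 to 0.65 for C3ar1; in 7B12 against the controls it ran from -0.33 to 0.068 for C1qa, -0.31 to 0.25 for C1qb, -0.20 to 0.21 for C1qc; in IgG less NT it ran from -0.22 to 0.27 for C1qa, -0.38 to 0.38 for C1qb, -0.27 to 0.28 for C1qc, -0.45 to 0.26 for C1s, -0.12 to 0.54 for C3, -0.20 to 0.30 for C3ar1, -0.21 to 0.43 for C5ar1, -0.16 to 0.13 for Serping1; in 7B12 less 11C7 it ran from -0.011 to 0.58 for C5ar1. The causes were not tested. The alternatives for counts of members were chosen after seeing the data.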
